A study of Danio rerio with 4 samples.

Results

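Scavenger receptors are cell-surface proteins that bind modified lipoproteins, hyaluronan, glycoproteins and other waste molecules and carry them into the cell for breakdown. In zebrafish embryos they are known from the endothelium of veins and early lymphatic vessels, whose cells clear such molecules from the blood. Cargo is gathered into clathrin-coated pits by adaptor proteins, passed to early endosomes and delivered to lysosomes. The genes described here are the 5 named stab2, stab1, lyve1b, mrc1a and dab2 in the gene column of the expression table. They were found by exact name, 1 row each, among 31716 genes. The stabilin genes stab2 and stab1 encode large scavenger receptors, lyve1b encodes a homolog of the lymphatic vessel hyaluronan receptor, mrc1a encodes a mannose receptor, and dab2 encodes a clathrin adaptor for receptors of the low-density lipoprotein receptor family.

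RNA was sequenced from sorted cells of zebrafish embryos, strain Tg(fli1a:egfp), at 24 hours post fertilization, with 2 libraries from GFP-positive cells and 2 from GFP-negative cells. All 4 libraries carry the transgene, in which fli1a regulatory sequence drives a green fluorescent protein (GFP). The GFP-positive fraction is labelled as endothelial and the GFP-negative fraction as non-endothelial cells. The embryos were dissociated, the cells were fixed and sorted, and total RNA was recovered. The deposited table gives 1 FPKM value (sequenced fragments of a gene divided by transcript length and library size) for each gene and fraction, which is the authors' group value. It carries no standard deviation, the depth is unknown, and whether libraries came from separate clutches is not stated in the labels. A p-value therefore refers to these libraries alone, whose differences may be technical.

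The sort was checked with genes of the vessel lining. The fli1a gene itself had 187 FPKM in the GFP-positive fraction, against 4.71 FPKM in the GFP-negative one, the vascular cadherin gene cdh5 had 87.3 against 0.567 FPKM, and the growth factor receptor gene kdrl had 52.4 against 2.13 FPKM. Of 28 pan-endothelial genes with a test, 17 were called higher and 0 lower. A gene was called when its q-value in the authors' deposited table (Cuffdiff, adjusted over all tested genes) was under 0.05. Without adjustment, 0 pan-endothelial genes were lower at a p under 0.05. The fractions separate labelled from unlabelled cells and not veins from arteries, so the venous character of the 5 genes cannot be checked by this comparison. In such sorted pools, fewer cells of a type and less RNA per cell cannot be told apart.

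All 5 genes were more abundant in GFP-positive cells. Of the 4 with a test, 3 rose, namely stab2, lyve1b and dab2. In GFP-negative cells lyve1b was listed at 0 and mrc1a had 0.179 FPKM. Both were thus tested through their GFP-positive level and could only be called higher or not called. Among all 7299 tested genes, 7.18% were called higher in the deposited Cuffdiff results, a share that is no expectation for genes tested in that way. The 3 genes also passed a q of 0.01, where 4.12% of tested genes were called higher. All 3 had the smallest Cuffdiff p of these data, 5e-05, which 381 tested genes shared. Their q of 0.000958 is thus the lowest possible here and does not rank them. The genes were chosen with results of these data known, so their count is a description. The mannose receptor gene mrc1a was tested and did not pass, and stab1 was not tested. Summed over the 5 genes, the level was 1225 FPKM in GFP-positive cells, against 16.2 FPKM in GFP-negative cells, and stab2 alone made up 74.4% of the first sum and 64.6% of the second.

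**Figure D1:**
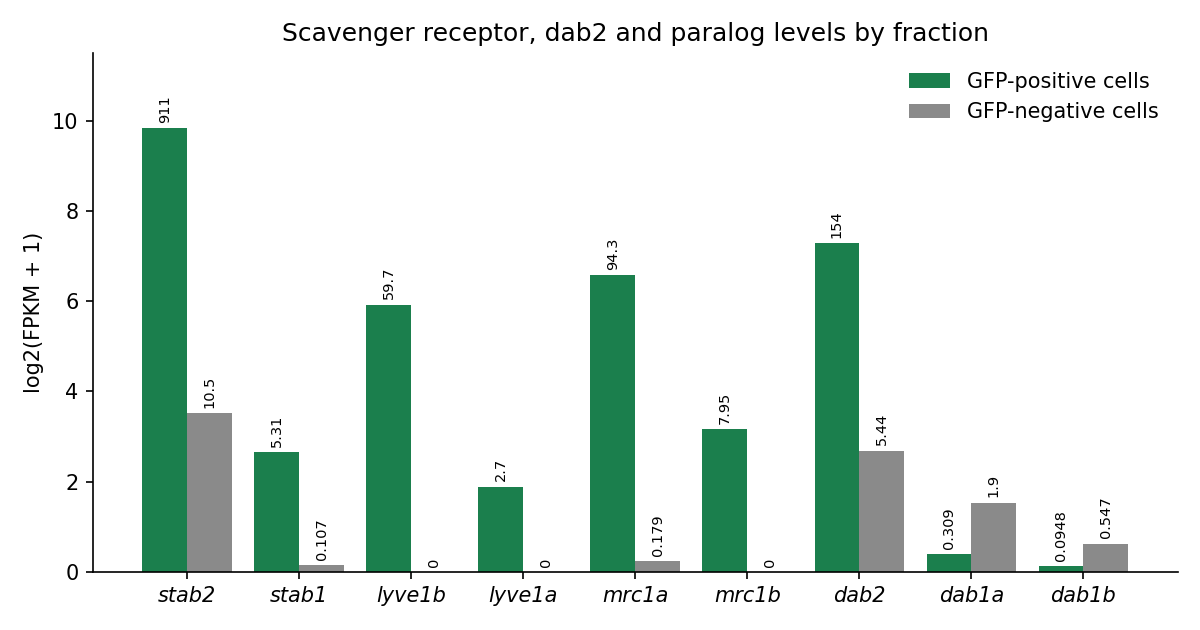
Levels of the 5 genes and of their paralogs lyve1a, mrc1b, dab1a and dab1b as log2(FPKM + 1), in GFP-positive (green) and GFP-negative cells (grey), with the FPKM value above each bar and no error because each bar is the authors' group value. The tallest bar is stab2 at 911 FPKM in GFP-positive cells, while dab1a and dab1b are under 2 FPKM in both fractions and larger in GFP-negative cells.

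The stabilins differed most in level. The gene stab2 (ENSDARG00000045748, chromosome 4, 9786318 to 9828071 in the Zv9 build), whose product takes up hyaluronan in mammals, had 911 FPKM in GFP-positive cells, against 10.5 FPKM in GFP-negative cells. The authors' deposited table puts this at 87.1-fold and its q at 0.000958. It ranked 143rd by level of all 31716 genes in GFP-positive cells, and 16th of the tested genes by log2((FPKM + 1) ratio). Its FPKM in GFP-positive cells was 4.88 times that of fli1a, 10.4 times that of cdh5 and 17.4 times that of kdrl. The other stabilin, stab1 (ENSDARG00000076484, chromosome 22, 10388435 to 10464531), is a scavenger receptor of sinusoidal endothelium and macrophages in mammals. It had 5.31 FPKM in GFP-positive cells, against 0.107 FPKM in GFP-negative cells, which the authors' deposited table gives as 49.7-fold without a test. Within GFP-positive cells the FPKM of stab2 was 171 times that of stab1.

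The hyaluronan receptor gene lyve1b (ENSDARG00000062483, chromosome 18, 16403480 to 16407953) had 59.7 FPKM in GFP-positive cells, while the GFP-negative fraction lists it at 0. Its q in the authors' deposited table is 0.000958, with no test statistic beside it, and no fold is given against a value listed at 0. Its paralog lyve1a, found through the reference name of its gene ID, had 2.70 FPKM in GFP-positive cells, also against a listing at 0, and was not tested. The better known hyaluronan receptor genes of other tissues, cd44a and cd44b, had 0.252 and 0.245 FPKM in GFP-positive cells, against a listing at 0 for both in GFP-negative cells, and had no test. Among these hyaluronan-binding receptors, stab2 and lyve1b therefore had the highest FPKM in GFP-positive cells, with no measure of error on that order.

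The mannose receptor gene mrc1a (ENSDARG00000073928, chromosome 7, 65407821 to 65468212), a C-type lectin of lymphatic and venous endothelium and, in mammals, of macrophages, had 94.3 FPKM in GFP-positive cells, against 0.179 FPKM in GFP-negative cells. Its ratio of 527 was the largest of the 4 that could be computed, at 9.04 on the log2 scale in the authors' deposited table. By that table's Cuffdiff test it did not pass, at an unadjusted p of 0.123 and a q of 0.385. Its paralog mrc1b had a lower level, 7.95 FPKM in GFP-positive cells against a listing at 0 in GFP-negative cells. It was called higher, at a q in the authors' deposited table of 0.000958, also without a test statistic. A more distant gene of the family, MRC2, named after its values were seen, had 3.42 against 2.63 FPKM and was not tested.

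Calls in the table varied with the value in GFP-negative cells, which bears on mrc1a and lyve1b. Among tested genes with a log2((FPKM + 1) ratio) of 3 or more, a split chosen after seeing the data, 42 of 61 genes listed at 0 in GFP-negative cells were called higher in the authors' deposited table. With a GFP-negative value above 0 and below 0.25 FPKM, as for mrc1a, 0 of 22 were called by Cuffdiff, and their unadjusted p ran between 0.0198 and 0.253, with 4 of them under 0.05. The share called was 2 of 32 at 0.25 to 0.5 FPKM, 12 of 40 at 0.5 to 1 FPKM, 51 of 76 at 1 to 5 FPKM and 37 of 39 at 5 FPKM and over. The GFP-negative values of dab2 and stab2 lie in the last of these ranges. The ratio limit ties these ranges to the level in GFP-positive cells. Its median rose from 18.4 FPKM in the range of mrc1a to 249 FPKM in the last range. Across the ranges above 0, the share called was therefore not separated from the GFP-positive level. The genes listed at 0 had a median of 21.7 FPKM in GFP-positive cells, close to that in the range of mrc1a. The shares called were nevertheless 42 of 61 and 0 of 22. At 94.3 FPKM, mrc1a lay above the median of its range. The test statistic of mrc1a was -4.94 in the authors' deposited table, where negative values mean higher in GFP-positive cells. Of the 86 tested genes that were more abundant in GFP-positive cells and had a statistic at least that large in size, mrc1a among them, 76 were called and 10 were not. That mrc1a did not pass does not show that the fractions were alike.

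**Figure D2:**
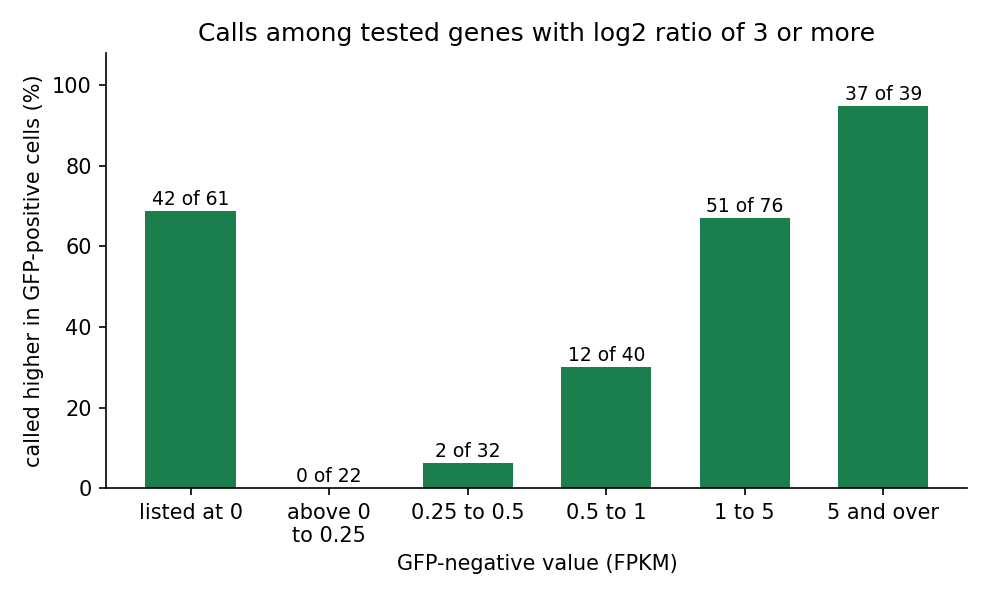
Share of genes called higher in GFP-positive cells (percent, vertical axis) by their GFP-negative value in FPKM (horizontal axis), among tested genes with a log2((FPKM + 1) ratio) of 3 or more; the numbers above the bars are genes called of genes tested. Genes listed at 0, such as lyve1b, were called in 42 of 61 cases, and genes above 0 and below 0.25 FPKM, such as mrc1a, in 0 of 22.

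The adaptor gene dab2 (ENSDARG00000031761, chromosome 5, 33961389 to 33976481) had 154 FPKM in GFP-positive cells, against 5.44 FPKM in GFP-negative cells. The authors' deposited table gives 28.4-fold for it, and 0.000958 as its q. In GFP-positive cells its FPKM was second to that of stab2, which was 5.90 times higher, and above those of mrc1a by 1.64 times and of lyve1b by 2.59 times. The paralogs dab1a and dab1b, whose mammalian counterpart acts in reelin signalling in the brain, had the reverse order of values. They stood at 0.309 against 1.90 FPKM and at 0.0948 against 0.547 FPKM, and neither was tested.

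By level in GFP-positive cells the order was thus stab2, dab2, mrc1a, lyve1b and stab1. Whether neighbours in this order differ beyond the spread between libraries cannot be said from 1 value per fraction. By log2((FPKM + 1) ratio), a scale that understates the difference of low genes, the values were 6.34 for mrc1a, 6.31 for stab2, 5.92 for lyve1b, 4.59 for dab2 and 2.51 for stab1. Their median, with the untested stab1 counted, was 5.92, beside 0.05 over all tested genes and 4.61 over the tested pan-endothelial genes.

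**Figure D3:**
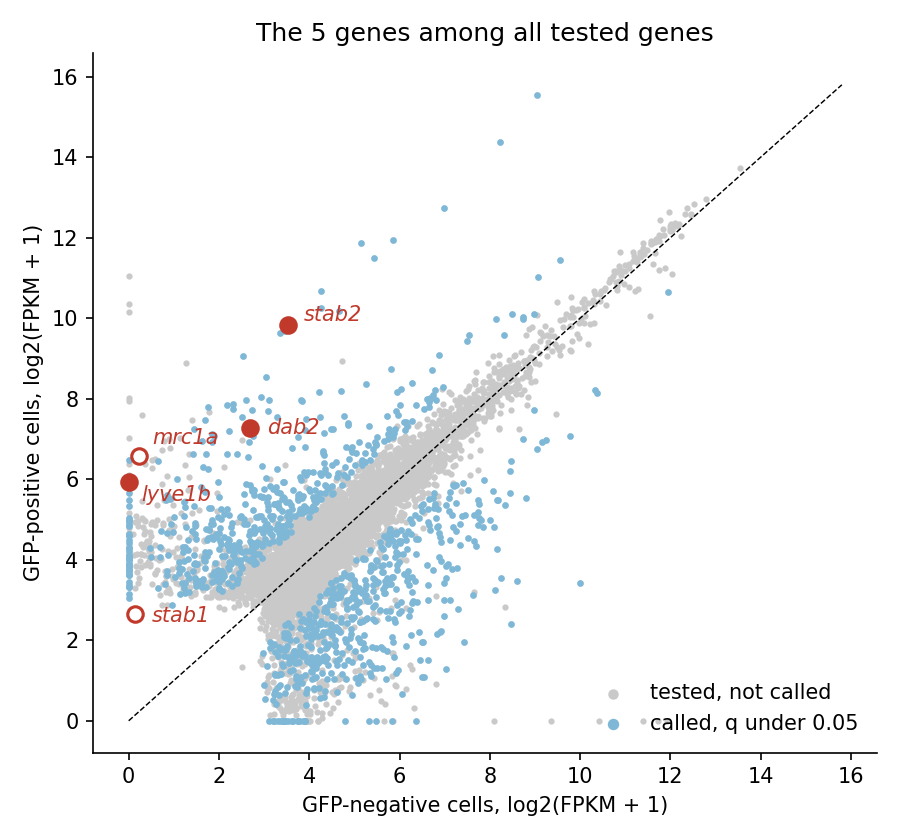
All 7299 tested genes by log2(FPKM + 1) in GFP-negative cells (horizontal axis) and GFP-positive cells (vertical axis), with called genes in blue, other tested genes in grey and equal values on the dashed line. The 5 genes are in red, filled where called and open where not (mrc1a) or not tested (stab1), and all lie above the line.

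The value remaining in GFP-negative cells can be set against that of other vessel genes. It was 0.190% of the GFP-positive value for mrc1a, 1.15% for stab2, 2.01% for stab1 and 3.52% for dab2, and lyve1b was listed at 0. Among the 27 tested pan-endothelial genes more abundant in GFP-positive cells it ran between 0.365% and 9.64%, with a median of 1.79%. This choice of genes keeps the shares low by construction. The tested gene of that list it leaves out, s1pr1, had 58.6 against 74.2 FPKM, a share of 127%. The share for dab2 was above that of 18 of these 27 genes, that for stab1 above 14, that for stab2 above 8 and those for mrc1a and lyve1b above 0. The shares for fli1a, cdh5 and kdrl were 2.52%, 0.649% and 4.07%, so stab2, stab1 and dab2 lay within the range of these sort markers and mrc1a and lyve1b lay under it. Over the 14 tested macrophage and leukocyte genes described below, the median share was 1.05%. Those genes had at most 1.65 FPKM in GFP-negative cells and were tested through their GFP-positive level, which keeps their shares low as well. A low share therefore does not tell endothelial from leukocyte genes.

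The genes with the most similar pair of values were taken as the 3 tested genes nearest to each in log2(FPKM + 1) over the 2 fractions. Nearest to stab2 were the endothelial and red cell water channel gene aqp1a.1 at a distance of 0.15, with 825 against 10.1 FPKM, the uncharacterised si:ch211-5k11.12 at 0.27 and the red cell anion exchanger gene slc4a1a at 0.84. Nearest to dab2 were the claudin gene cldn5b at 0.15, with 142 against 5.09 FPKM and no call, C8orf4 (1 of 2) at 0.22 and fli1a at 0.32. Nearest to mrc1a were srgn, which encodes a proteoglycan of blood cell granules, at 0.10, OLFM4 (3 of 8) at 0.23 and si:ch211-214p16.2 at 0.26. Nearest to lyve1b, and like it listed at 0 in GFP-negative cells, were the collagenase gene mmp13a at 0.03, CABZ01058646.1 at 0.06 and OLFM4 (5 of 8) at 0.06. Nearest to stab1 were the leukocyte integrin gene itgb2 at 0.43, mrc1b at 0.52 and iqgap2 at 0.63. The search held tested genes alone, while stab1 itself was not tested, so untested genes of similar level were left out. The pan-endothelial gene ecscr, untested with 6.86 FPKM against a listing at 0, lay nearer to stab1 than itgb2, with 7.35 FPKM against a listing at 0. The neighbours thus include endothelial, red cell and leukocyte genes, and likeness over 2 values does not tell these apart.

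Other receptors that take up ligands went both ways. Of 11 tested genes in a list of scavenger and endocytic receptors without the 5 genes, 3 were called higher and 1 lower in the authors' deposited table, where 7.15% of tested genes were called lower. Their median log2((FPKM + 1) ratio) was 0.25. Besides mrc1b, the genes that rose were tfr1a, the transferrin receptor through which red cell precursors take up iron, with 139 against 2.61 FPKM, and colec12, a scavenger receptor with a collagen-like stalk, with 71.8 against 19.5 FPKM. The lipoprotein and reelin receptor gene vldlr fell, with 4.52 against 16.3 FPKM and, in the authors' deposited table, q = 0.0349. Some genes without a call, named after their values were seen, had large ratios and low GFP-negative values, as mrc1a did. They were clec14a, with 76.7 against 0.433 FPKM, and scarf1, with 19.1 against 0.255 FPKM. Of the tested receptor genes, clec14a is the 1 that is also in the pan-endothelial list, and whether its product takes up ligands was not tested here. The uncalled sort1b went the other way, with 2.89 against 10.8 FPKM. Of the 11 tested genes, 6 were more abundant in GFP-positive cells. Of the 18 list symbols that are not in the table's gene column, no value is given here except for lyve1a.

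Other hyaluronan genes showed no shared direction. Of 7 tested genes of hyaluronan synthesis, binding and breakdown besides stab2 and lyve1b, the intracellular and surface hyaluronan receptor gene hmmr among them, 1 was called higher and 3 lower, with a median log2((FPKM + 1) ratio) of -0.48. The link protein gene hapln1b rose, with 51.9 against 5.80 FPKM. The synthase gene has2 fell, with 2.05 against 11.9 FPKM, as did the link protein gene hapln1a, with 41.1 against 109 FPKM, and the hyaluronan-binding proteoglycan gene vcanb, with 5.25 against 14.8 FPKM.

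Genes of the clathrin machinery with which dab2 works showed smaller differences than dab2. Of 24 tested, 7 rose and 17 were not called in the authors' deposited table, where 0 were called lower, and the median log2((FPKM + 1) ratio) was 0.49. At an unadjusted p under 0.05, 1 was lower, the adaptor gene ldlrap1a, with 5.25 against 14.1 FPKM. The largest differences among called genes were those of ap2m1a, a subunit of the plasma membrane adaptor complex AP-2, with 546 against 116 FPKM, and of sh3kbp1, an endocytic scaffold gene, with 33.2 against 7.74 FPKM. The early endosome GTPase gene rab5c and the clathrin heavy chain gene cltca followed, with 120 against 43.0 FPKM and 46.9 against 17.1 FPKM. The AP-2 subunit genes ap2a1 and ap2s1, named after their values were seen, rose as well, with 106 against 41.7 FPKM and 85.6 against 36.8 FPKM. The AP-2 subunit genes ap2b1 and ap2m1b and the other clathrin heavy chain gene, cltcb, were not called, with 19.0 against 17.7 FPKM, 37.0 against 34.3 FPKM and 47.1 against 55.1 FPKM. The deposited folds of the 7 genes that rose lay between 2.33 and 4.72, against 28.4 for dab2 in the authors' deposited table. These 7 include arrb2b, also named after its values were seen, with 44.6 against 17.6 FPKM.

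**Figure D4:**
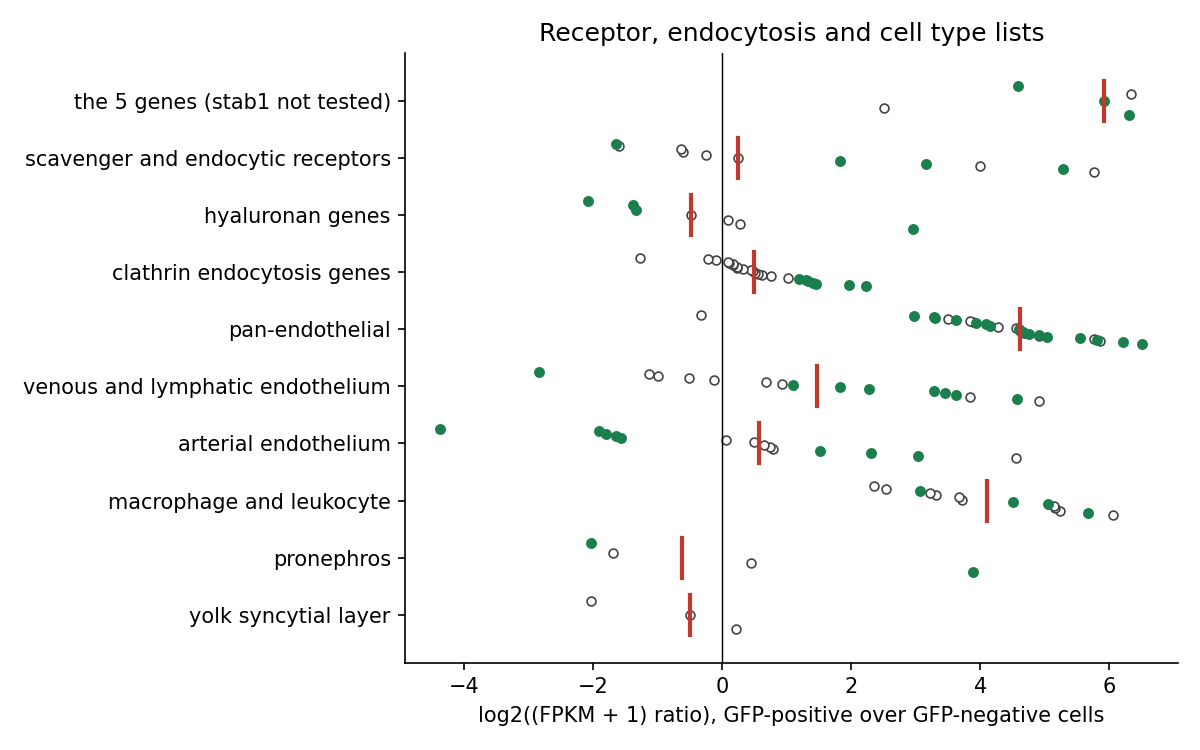
Log2((FPKM + 1) ratio), GFP-positive over GFP-negative, for the 5 genes and for the tested genes of 9 lists that leave them out, 1 point per gene, filled where called in either direction and open where not, with the median as a red bar. The medians are 5.92 for the 5 genes, with the untested stab1 counted, and 4.61 for pan-endothelial genes. They are 4.11 for macrophage and leukocyte genes and 1.47 for other venous and lymphatic genes. The pan-endothelial and venous lists share 4 tested genes.

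Other venous and lymphatic genes were divided. Of 16 tested, 7 rose, 1 fell and 8 did not pass in the authors' deposited table, and 4 were higher at a q of 0.01. Their median log2((FPKM + 1) ratio) was 1.47. At an unadjusted Cuffdiff p under 0.05, 8 were higher and 3 lower. The 3 were prox1a, ephb4a and the transcription factor gene nr2f1b, the last with 11.2 against 25.8 FPKM. The list shares 4 tested genes, tie1, tek, sox7 and sox18, with the pan-endothelial list. The lymphatic growth factor receptor gene flt4 had 44.3 against 0.898 FPKM, the angiopoietin receptor gene tek 18.9 against 0.606 FPKM, the apelin receptor gene aplnrb 29.1 against 1.75 FPKM and the transcription factor gene sox7 57.5 against 5.03 FPKM. The gene prox1a, a transcription factor of lymphatic fate, fell, with 1.88 against 19.6 FPKM. The genes best known for setting venous identity, named here after their values were seen, were not called. The transcription factor gene nr2f2 had 65.2 against 93.7 FPKM and the ephrin receptor gene ephb4a 8.29 against 17.5 FPKM. Of 14 arterial and Notch pathway genes, 3 rose and 5 fell, among them the Notch ligand gene dll4 with 28.9 against 2.64 FPKM and the receptor gene notch3 with 16.8 against 66.0 FPKM.

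Because mannose receptors and stabilins also occur on macrophages, leukocyte markers are given beside them. Of 14 tested macrophage and leukocyte genes, 4 were called higher, 0 were called lower and 14 were more abundant in GFP-positive cells, with 0 lower at an unadjusted p under 0.05 in the authors' deposited table. These 14 had at least 7.35 FPKM in GFP-positive cells and at most 1.65 FPKM in GFP-negative cells. They were thus tested through their GFP-positive level, so their shared direction adds no support. Of all 29 rows of the list, 25 were larger in GFP-positive cells. Their values, summed over all 29 rows of the list, came to 563 FPKM in GFP-positive cells, against 9.95 FPKM in GFP-negative cells. The macrophage gene mpeg1 had 21.7 FPKM in GFP-positive cells and a listing at 0 in GFP-negative cells. The phosphatase gene ptpn6 with 32.1 FPKM, havcr1 with 49.8 FPKM and itgb2 with 7.35 FPKM in GFP-positive cells were listed at 0 there too. Another row named ptpn6 had 5.75 against 0.751 FPKM and was not tested. The highest levels of the list belonged to genes without a call, named after their values were seen. These were mfap4, with 176 against 1.65 FPKM, and coro1a, with 67.0 against 0.799 FPKM. The growth factor receptor gene csf1ra had 0.697 against 0.231 FPKM and was not tested. In GFP-positive cells 4 of the 29 rows were listed at 0. The part of leukocytes in the values of stab2, stab1, mrc1a, lyve1b and dab2 was not tested.

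The adaptor dab2 is also known from the kidney tubule and other absorptive tissues. Its partners in the tubule had little signal in either fraction, and none of them was tested. The receptor gene lrp2a had 0.0156 against 1.49 FPKM, cubn had 0.0840 against 0.120 FPKM, and amn was listed at 0 in both fractions. Values this low do not show how many tubule cells either fraction held. Of 4 tested pronephros genes, the phosphate transporter gene slc20a1a rose, with 39.6 against 1.74 FPKM, and the transcription factor gene pax2a fell, with 2.38 against 12.9 FPKM. At a q of 0.01 slc20a1a did not pass. Over the 15 rows of the pronephros list, 3 of which were larger in GFP-positive cells, the summed level was 59.3 FPKM in GFP-positive cells, against 39.8 FPKM in GFP-negative cells. The first sum rests mostly on slc20a1a, the 1 gene of the list called higher. Without it the sums were 19.6 against 38.1 FPKM, with 13.1 against 9.34 FPKM from trpm7. The gene slc20a1a was left out after seeing the data, which lowers the first sum by construction, so the order of the sums is no measure of tubule cells. In a yolk syncytial layer list, 0 of 3 tested genes were called by Cuffdiff and 1 was lower at an unadjusted p under 0.05. Over its 10 rows the summed level was 125 against 187 FPKM. The part of these tissues in the value of dab2 was not tested.

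The 5 genes lie on different chromosomes. Within 100 kb of them, or in the same locus, the table holds 51 other rows, of which 17 were tested. Of these, 2 were called higher and 2 lower, where 7.18% of all tested genes were called higher and 7.15% lower. So few tested rows do not show whether genes near the 5 differ from other genes. The purine enzyme gene ampd3b, 13.7 kb beyond lyve1b, had 14.4 against 1.16 FPKM, and PPFIBP1 (2 of 2), 49.7 kb beyond stab2, had 33.1 against 4.65 FPKM. Next to dab2 lie genes of the fast muscle myosin heavy chain cluster, of which myhz1.3 fell, with 25.7 against 101 FPKM, as did the growth arrest gene gas1b on the other side, with 21.1 against 62.7 FPKM. The loci of stab1 and stab2 each hold 1 further row. In the stab1 locus si:dkeyp-87e7.7 had a listing at 0 in GFP-positive cells, against 14.9 FPKM in GFP-negative cells, and q = 0.549 in the authors' deposited table. In the stab2 locus si:dkey-207j16.5 was listed at 0 in both fractions. How reads were divided within a locus is not given in the sources used here, so the stab1 value is uncertain in that respect.

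**Figure D5:**
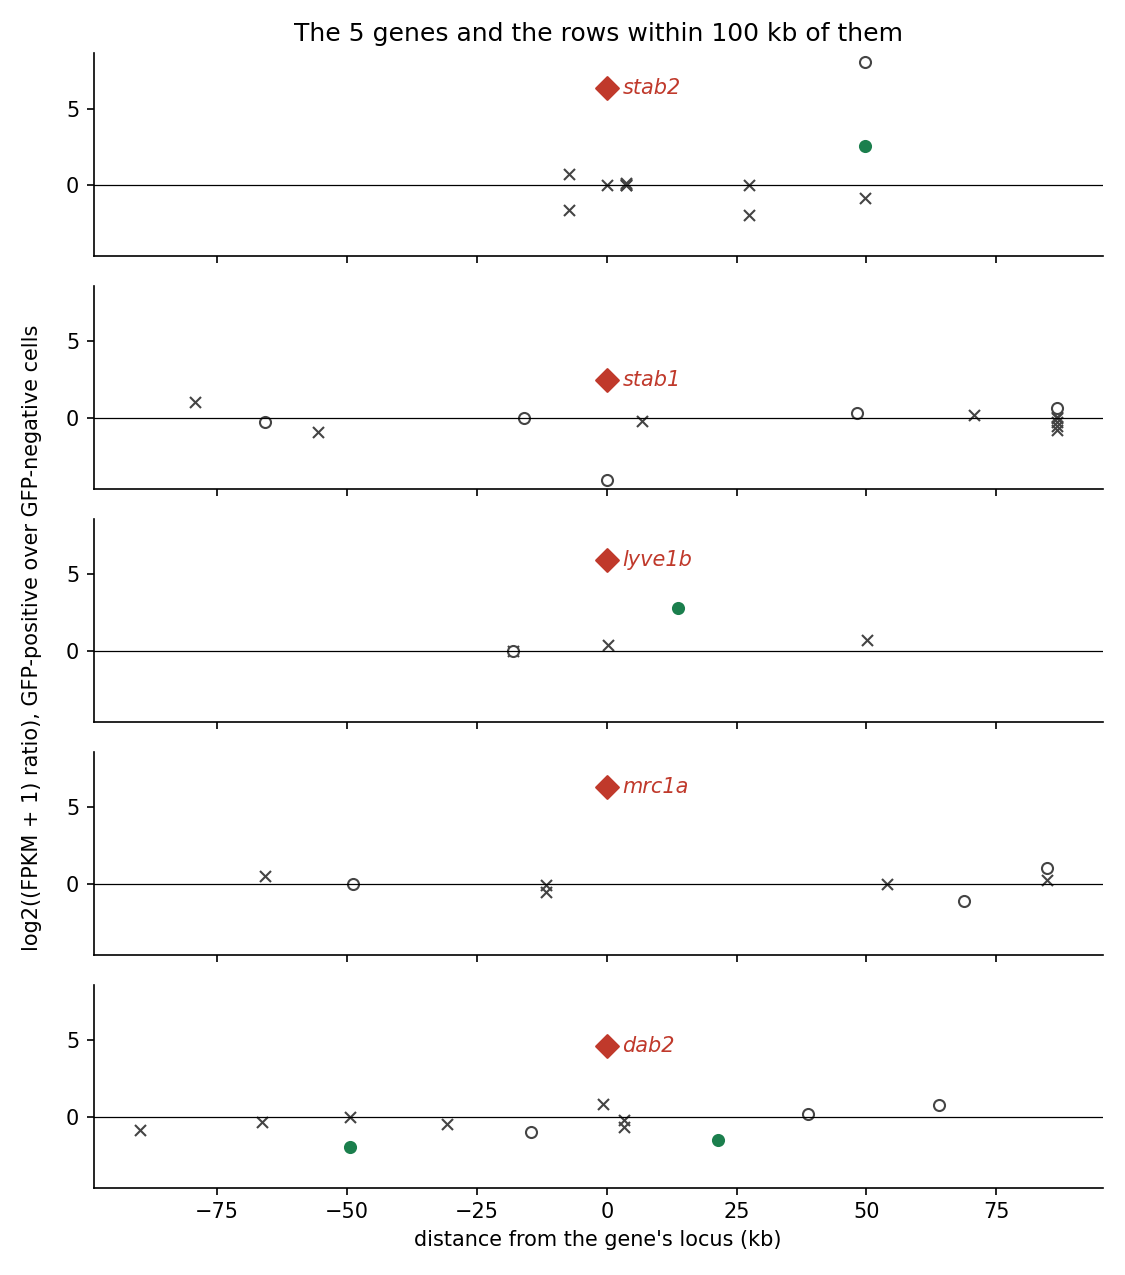
Log2((FPKM + 1) ratio), GFP-positive over GFP-negative, (vertical axis) for each of the 5 genes (red diamond) and the rows within 100 kb of its locus (horizontal axis, distance in kb, rows of the same locus at 0), as filled green circles where called, open circles where tested and not called, and crosses where not tested. Most neighbours lie near a ratio of 0, and the point above stab2 is a small nucleolar RNA, snoR74, with 257 FPKM against a listing at 0 and no call.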

How the data were processed

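The authors deposited 1 table of 31716 genes for the series. Per the submitters' processing notes it was made with TopHat2 2.0.9 and Cuffdiff 2.1.1 on the Zv9 build; settings and use of strand are not given in the sources used here. Per the file headers it holds 1 FPKM value per gene and group, taken as an estimate over both libraries of a group, besides the authors' log2 ratio, their p-value, their q-value and the score of their test, all as deposited. The deposited log2 ratio has the GFP-negative value on top, and its sign was changed here. It matched the FPKM columns within 1.5e-05. The q-value matched a Benjamini-Hochberg adjustment over the 7299 tested genes within 5.3e-07. Another 24304 genes had no test and 113 were set aside by Cuffdiff. No test of single libraries could be run on group values, and the precision of each value is unknown.

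Ratios were computed as log2((FPKM + 1) ratio), GFP-positive over GFP-negative. FPKM values summed to 798915 for the GFP-positive fraction, against 664220 for the GFP-negative fraction, and 7 globin rows made up 11.1% of the first sum and 0.167% of the second. Locus coordinates are printed as the file gives them, without a statement whether starts count from 0 or 1. The 5 genes and the gene lists were chosen with earlier results of these data known. Genes named are the 5 genes, their paralogs, 3 nearest genes each, of each list up to 4 genes called in the commoner direction and up to 2 called the opposite way, every called gene where a list has 5 or fewer, and a few markers. Not every gene the rule allows is named. Alternatives were other thresholds, pseudocounts, scalings and filters. The code (Python 3.11.15, pandas 2.3.3) was tested on simulated data with values above 0 in both groups. That covers the code alone, not the deposited Cuffdiff calls or genes listed at 0.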

Additional observations from a re-analysis of the deposited data

How the results depend on the processing

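No paired analysis was possible because the table gives 1 value per group and none for single libraries, and leaving out each library could not be run for the same reason. The count of 3 genes called higher was the same at a q of 0.01, with the adjustment repeated over genes of at least 1 FPKM, with a minimum log2 ratio of 1 and with minimum values of 1 and 5 FPKM. All 3 had the smallest Cuffdiff p and at least 59.7 FPKM in GFP-positive cells. These settings could therefore not have removed them, and the unchanged count is no check. Among rows alone in their locus, which leaves out stab2 and stab1, the count was 2. Each of the 5 genes was more abundant in GFP-positive cells under each pseudocount and scaling tried. This direction is no check, because the same pseudocount on both values cannot change which is larger. The scalings also moved the ratios too little to turn them. The size for low genes depends on the pseudocount: with 0.1 and 0.01 in place of 1, the log2 ratio was 4.71 and 5.51 for stab1 (2.51 as reported), 9.22 and 12.54 for lyve1b, whose GFP-negative value is listed at 0, and 8.40 and 8.96 for mrc1a. For stab1 it was 2.50 centred on the median gene, 2.72 with FPKM scaled to an equal sum and 2.87 with globin rows left out of that sum. Equal sums put the median tested gene at -0.21, against 0.05 as deposited, and -0.05 without globins. A minimum of 1 FPKM in both groups leaves stab2 and dab2 alone. At a q of 0.01, venous and lymphatic genes called higher numbered 4, scavenger and endocytic receptors called lower 0 (vldlr lost) and pronephros genes called higher 0 (slc20a1a lost). With list symbols also matched to reference names, an alternative chosen after seeing the data, 1 yolk syncytial layer gene was called lower, zgc:161979. The other 68 list counts computed under alternatives stayed within 1.5 times of those reported. Depth is unknown, so no limit of detection is given.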
